A study of Mus musculus with 9 samples.

Results

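The tumor suppressor p53, encoded by *Trp53*, and 9 genes of its pathway were examined in SIX2 progenitors with and without mitochondrial (mt) complex III subunit QPC. Except for *Mdm4*, which encodes a regulator of p53, the 9 are genes that p53 is known to activate. The 10 genes were *Trp53*, *Mdm2*, *Mdm4*, *Cdkn1a*, *Ccng1*, *Sesn1*, *Zmat3*, *Phlda3*, *Trp53inp1* and *Eda2r*. They were found by symbol among the 26858 genes of the deposited count table, and all 10 belonged to the 14990 genes with enough counts to be tested. Cells that expressed the eGFP/Cre fusion from a *Six2* promoter transgene were sorted from E18.5 (embryonic day) mouse kidneys, and their poly(A) RNA was amplified and sequenced. *Six2-Qpc*-/- mutants (n = 5) carried the transgene and 2 floxed *Qpc* alleles. *Six2-Qpc*+/- controls (n = 4) carried the same transgene and were heterozygous at *Qpc*, so that both groups held Cre and eGFP and the controls had also lost 1 functional copy in the sorted cells. *Qpc* is listed under its gene symbol *Uqcrq*. Strain background, litter and sex of the embryos were not given, and nothing states that samples of a group came from separate kidneys or embryos, so that all p-values below measure the spread between these samples.

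p53 is a transcription factor whose protein is kept scarce by the ubiquitin ligase MDM2 and its partner MDM4. DNA damage, ribosomal or nucleotide stress releases p53 from MDM2, after which it binds response elements near its target genes and raises their transcription, *Mdm2* among them. Because p53 is controlled mainly as a protein, levels of target transcripts are the usual RNA readout of its activity. In the nephron lineage, deletion of *Mdm2* is known to deplete the progenitors, and the pathway is therefore studied in the developing kidney.

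A p53 response element consists of 2 blocks of 10 bases, each with a conserved C and a conserved G, separated by a spacer of up to 13 bases. It reads the same on both strands, so that a search of 1 strand covers both. RefSeq promoter windows (GRCm38.p6, 250 bases before to 50 bases after a transcript start) were at hand for 8 of the 10 genes, in 11 windows, and not for *Zmat3* and *Trp53inp1*. A match needed the conserved C and G of each block in place and at most 2 mismatches elsewhere. Such an element was found in 3 of these 8 genes (37.5%). The share was 4.71% of all 27025 genes of the RefSeq table and 4.09% of its 32851 windows. In the lists described further below, 6 of 32 other p53 targets with a window had a match (18.8%). So did 2 of 23 p53 regulators (8.7%) and 1 of 12 cell cycle genes (8.33%). The sequences below are the matches of *Cdkn1a*, *Ccng1* and *Sesn1* and, for *Mdm2* and *Trp53*, a lone 10-base block, each with 30 flanking bases, printed 5′ to 3′ on the strand of the gene. Capitals mark the 10-base blocks of the match with the fewest mismatches, or the lone block.
Cdkn1a: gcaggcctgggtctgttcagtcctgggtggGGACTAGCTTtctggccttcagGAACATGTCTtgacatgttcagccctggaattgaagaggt
Ccng1: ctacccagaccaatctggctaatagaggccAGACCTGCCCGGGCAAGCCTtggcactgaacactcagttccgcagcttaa
Sesn1: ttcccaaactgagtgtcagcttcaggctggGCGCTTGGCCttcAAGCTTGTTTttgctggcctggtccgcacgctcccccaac
Mdm2: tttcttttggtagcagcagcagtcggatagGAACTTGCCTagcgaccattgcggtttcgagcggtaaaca
Trp53: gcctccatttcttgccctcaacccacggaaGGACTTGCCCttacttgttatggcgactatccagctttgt

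The *Cdkn1a* stretch, chr17:29090876-29090967 on the plus strand, holds an element without a mismatch and with a spacer of 12 bases, 73 to 42 bases before the upstream of the gene's 2 starts and outside the annotated gene. Only 24 of the 32851 windows (0.0731%) held an element without a mismatch. The *Ccng1* stretch, chr11:40755432-40755511 on the minus strand, holds an element with 1 mismatch and no spacer, 195 to 176 bases before the start and also outside the gene. At most 1 mismatch was seen in 0.627% of windows. The *Sesn1* stretch, chr10:41887223-41887305 on the plus strand, holds an element with 2 mismatches and a spacer of 3 bases before the downstream of 2 starts, within an intron of the longer transcript. The *Mdm2* stretch is chr10:117710905-117710974 on the minus strand, and the *Trp53* stretch is chr11:69580254-69580323 on the plus strand. At least 1 such block without a mismatch was present in 8.36% of windows, windows with a full element included. The windows of *Mdm4*, *Phlda3* and *Eda2r* held neither, which says only that these letters are not in these windows. Likewise, the windows of *Mdm2* and *Trp53* held no full element, and sequence outside them, introns included, was not searched.

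*Uqcrq*, the targeted gene, checked the labels. It fell from 94.1 ± 13.3 to 21.3 ± 4.45 counts per 1000000 (CPM, after TMM scaling of the library size, mean ± SD throughout), with a log2 fold change of -2.14 and an edgeR adjusted p of 2.1e-05, and the groups did not overlap. Library totals ranged from 22571729 to 23691130 counts in controls and from 21040536 to 23986458 in mutants. The summed CPM of 10 nephron progenitor markers, *Six2*, *Cited1* and *Eya1* among them, was 2272 to 2741 in controls and 2251 to 2703 in mutants, and none of the 10 passed the test. Markers of other cells moved with genotype. The sum of 8 stromal markers was 86.6 to 175 in controls and 242 to 620 in mutants, and 5 of the 7 tested rose. The sum of 5 myeloid markers was 2.34 to 6.81 in controls and 6.73 to 55.2 in mutants, with 2 of 5 higher, and 1 of 3 tested endothelial markers was higher. The sum of 5 markers of committed progenitors was 298 to 538 in controls and 215 to 332 in mutants, with 2 of 5 lower. None of the tested podocyte, proximal tubule, ureteric bud or erythroid markers passed, and 2 of the 6 erythroid markers had 3 counts or fewer in every library. The part of these cells in the values below was not tested, and in sorted bulk cells a change in the share of a cell type and a change of RNA per cell cannot be told apart.

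Of the 10 genes, *Mdm2* and *Zmat3* rose in mutants, none fell and 8 did not pass the test (edgeR, adjusted p under 0.05 over all 14990 genes). *Mdm2* was 1.27-fold higher and *Zmat3* 2.07-fold higher. Among all genes tested, 2225 passed (14.8%), 1172 of them higher in mutants (7.82%) and 1053 lower (7.02%), so that 2 of 10 is close to the share of all genes. The fitted log2 fold change was above 0 for 7 genes and below 0 for 3, with a median of 0.19 against -0.01 for all genes tested. The summed CPM of the 10 genes was 946 to 1063 in controls and 937 to 1140 in mutants, and these ranges overlapped. Mutants and controls did not overlap in 1 of the 10 genes, *Mdm2*, compared with 15.2% of all genes tested, 7.5% with mutants above and 7.73% with mutants below.

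**Figure D1:**
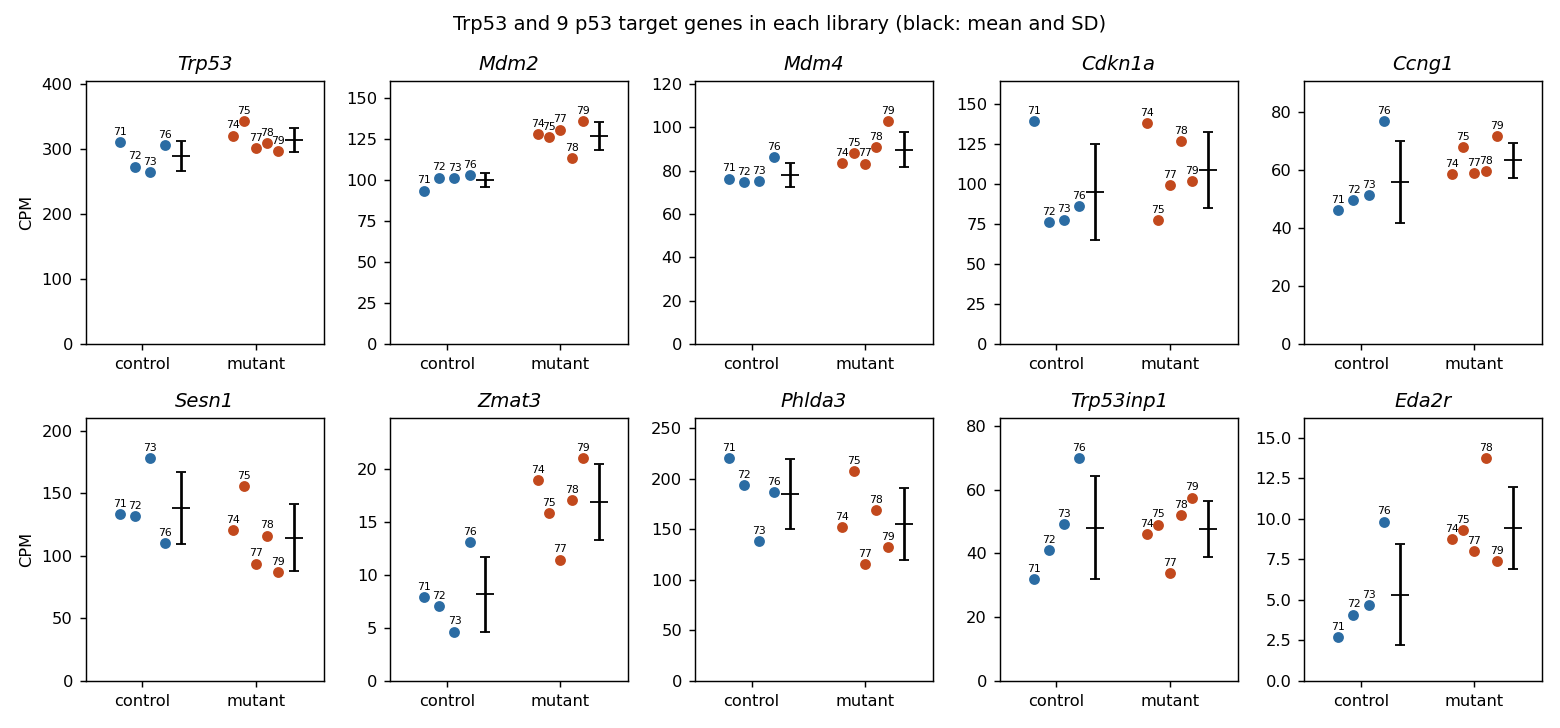
Level of each gene in each library in CPM, on axes that start at 0, for controls (blue, n = 4) and mutants (orange, n = 5), with replicate numbers beside the points and the mean and SD in black. *Mdm2* is the gene whose 5 mutant values, from 113 to 136, all lie above the 4 control values, from 93.5 to 103, and the mean of *Zmat3* went from 8.14 to 16.8, the largest fold rise of the 10.

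*Trp53* transcript did not pass the test. It measured 311, 273, 266 and 306 CPM in control replicates 71, 72, 73 and 76, and 321, 343, 302, 310 and 297 CPM in mutant replicates 74, 75, 77, 78 and 79. All 5 mutants lay above the control median, and 2 of them above every control. The means were 289 ± 23.0 and 315 ± 18.47 CPM, a 1.09-fold difference with a 95% interval of 0.935 to 1.27 (log2 fold change 0.12, SE 0.10, edgeR adjusted p = 0.445). An exact 2-sided permutation test of all 126 ways to divide the libraries into 4 and 5, where p cannot go below 0.00794, gave p = 0.143. The upper bound of this interval lies below the fold rise of *Zmat3*.

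*Mdm2* encodes the E3 ubiquitin ligase that marks p53 for degradation and is itself a p53 target. The gene lies at chr10:117688888-117710758 on the minus strand (mm10, coordinates of the deposited table). Its level was 93.5, 101, 101 and 103 CPM in control replicates 71, 72, 73 and 76. In mutant replicates 74, 75, 77, 78 and 79 it was 128, 126, 131, 113 and 136 CPM. Every mutant was above every control, and among controls no other gene of the 10 varied as little, with a coefficient of variation of 4.27% (6.65% in mutants). The means were 99.8 ± 4.26 and 127 ± 8.42 CPM. The log2 fold change was 0.34 (SE 0.10, 95% interval 0.13 to 0.56, edgeR adjusted p = 0.0359), and the exact permutation p was 0.0159. The size held when any library was left out, from 0.31 to 0.38, but the adjusted p did not: *Mdm2* passed in 3 of these 9 fits and in 10 of all 17 alternative settings, with adjusted p from 0.00453 to 0.0962.

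*Mdm4* encodes the MDM2 partner that covers the transactivation domain of p53. It measured 76.3, 74.8, 74.98 and 86.2 CPM in the controls and 83.5, 88.2, 83.2, 90.7 and 103 CPM in the mutants, in the same order of replicates. Control 76 lay within the mutant range, and the other 3 controls lay below it. The means were 78.1 ± 5.44 and 89.7 ± 7.98 CPM (log2 fold change 0.20, SE 0.11, edgeR adjusted p = 0.226), and the exact permutation p was 0.0476. The log2 ratio of *Mdm2* to *Mdm4* counts, which is free of library scaling, was 0.36 ± 0.09 in controls and 0.50 ± 0.14 in mutants (exact permutation p = 0.135, 0.270 after Benjamini-Hochberg adjustment over the 6 gene pairs compared). That of *Mdm2* to *Trp53* was -1.53 ± 0.15 and -1.31 ± 0.14 (exact permutation p = 0.0794, adjusted 0.238), and in both pairs the groups overlapped.

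*Cdkn1a* encodes p21, the inhibitor of cyclin-dependent kinases through which p53 arrests the cell cycle. It has the element without a mismatch printed above before its upstream start. Its level was 139, 76.2, 77.8 and 86.3 CPM in control replicates 71, 72, 73 and 76. It was 138, 77.6, 99.5, 127 and 102 CPM in mutant replicates 74, 75, 77, 78 and 79. Control 71 was the highest of the 9 libraries and mutant 75 was lower than control 73, so that both groups covered nearly the same range. The means were 94.9 ± 29.9 and 109 ± 23.9 CPM, a 1.15-fold difference with an interval of 0.850 to 1.55 (edgeR adjusted p = 0.541, exact permutation p = 0.397). Without control 71 the log2 fold change was 0.44 in place of 0.20 and did not pass either. The log2 ratio of *Cdkn1a* to *Cdkn1b*, which encodes the related inhibitor p27, was 3.74 ± 0.33 in controls and 3.59 ± 0.36 in mutants (exact permutation p = 0.540, adjusted 0.540).

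*Ccng1* encodes cyclin G1, which recruits a phosphatase to MDM2. It measured 46.1, 49.6, 51.4 and 76.9 CPM in the controls and 58.6, 68.0, 59.1, 59.7 and 71.6 CPM in the mutants. The highest of all 9 values was that of control 76, whereas the other 3 controls lay below all mutants. The means were 56.0 ± 14.1 and 63.4 ± 5.99 CPM (log2 fold change 0.18, SE 0.15, edgeR adjusted p = 0.459). Without control 76 the log2 fold change was 0.38 and still did not pass. The *Ccng1* to *Ccng2* log2 ratio was -2.22 ± 0.48 in controls and -1.93 ± 0.17 in mutants (exact permutation p = 0.246, adjusted 0.369).

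*Zmat3* encodes a zinc finger protein that binds RNA and affects splicing and transcript stability. The gene lies at chr3:32334796-32365678 on the minus strand (mm10). It measured 7.88, 7.01, 4.64 and 13.04 CPM in control replicates 71, 72, 73 and 76. Mutant replicates 74, 75, 77, 78 and 79 had 18.9, 15.8, 11.4, 17.0 and 21.01 CPM. All mutants except replicate 77 were above every control, and the overlap came from control 76 lying above mutant 77. The means were 8.14 ± 3.54 and 16.8 ± 3.61 CPM, a 2.07-fold rise with an interval of 1.38 to 3.11 (log2 fold change 1.05, SE 0.27, edgeR adjusted p = 0.0231, exact permutation p = 0.0238). Reads per library ranged from 110 to 463. When single libraries were left out the log2 fold change ranged from 0.85 without control 73 to 1.38 without control 76, and *Zmat3* passed in 5 of these 9 fits and in 13 of 17 alternative settings, with an adjusted p of at most 0.0672.

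*Eda2r*, on the X chromosome, encodes a receptor of the tumor necrosis factor receptor family that binds ectodysplasin A2. It was sparse, with 63 to 280 reads per library. The controls measured 2.68, 4.09, 4.68 and 9.83 CPM and the mutants 8.78, 9.30, 8.01, 13.8 and 7.40 CPM. As in *Zmat3*, 3 controls lay below all mutants and control 76 lay among them. The means were 5.32 ± 3.12 and 9.45 ± 2.52 CPM, a 1.78-fold difference that did not pass (interval 1.08 to 2.92, edgeR adjusted p = 0.109, exact permutation p = 0.0556). Without control 76 the log2 fold change was 1.32 with an edgeR adjusted p of 0.0109, and with the summed level of Y-linked genes as a covariate it was 0.70 with an adjusted p of 0.187.

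**Figure D2:**
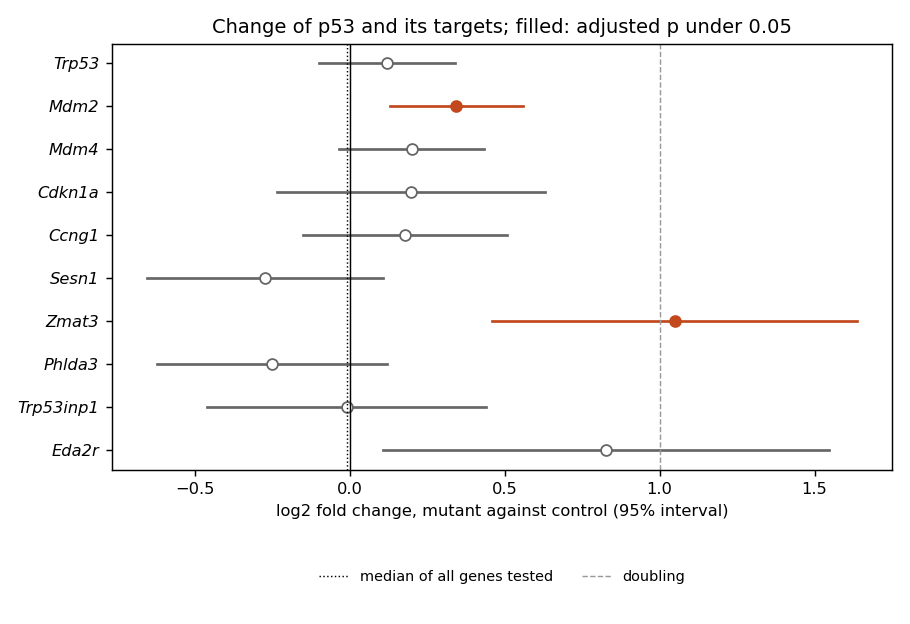
Log2 fold change of each gene, mutant against control, with its 95% interval (x axis) from the edgeR fit over 9 libraries, where filled points have an adjusted p under 0.05, the dotted line is the median of all genes tested and the dashed line marks a log2 fold change of 1. The intervals of *Mdm2* (0.13 to 0.56) and *Zmat3* (0.46 to 1.64) lie above 0 and these genes passed, that of *Eda2r* (0.11 to 1.55) lies above 0 without passing the adjusted threshold, and the other 7 intervals include 0.

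*Sesn1* encodes sestrin 1, which restrains mTORC1 signaling under amino acid shortage and oxidative stress. It measured 133, 132, 178 and 110 CPM in the controls and 120, 155, 93.8, 116 and 87.2 CPM in the mutants. The fitted value was below the control level (138 ± 28.6 against 115 ± 26.9 CPM, log2 fold change -0.27, SE 0.18, edgeR adjusted p = 0.316), and the groups overlapped. *Phlda3*, a lipid-binding repressor of AKT, measured 220, 193, 138 and 187 CPM in the controls and 152, 207, 115, 169 and 132 CPM in the mutants (log2 fold change -0.25, SE 0.17, edgeR adjusted p = 0.349). In both genes 4 of 5 mutants lay below the control median and mutant 75 above it.

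*Trp53inp1* encodes a cofactor of p53 that also acts in autophagy. It measured 31.9, 41.0, 49.3 and 70.0 CPM in the controls and 46.0, 49.1, 33.9, 52.1 and 57.5 CPM in the mutants, with means of 48.0 ± 16.2 and 47.7 ± 8.80 CPM. The fold difference was 0.993 with an interval of 0.728 to 1.36 (edgeR adjusted p = 0.980). Its log2 ratio to *Trp53inp2* was 2.39 ± 0.67 in controls and 2.66 ± 0.49 in mutants (exact permutation p = 0.452, adjusted 0.540).

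Some libraries were at the top or bottom of their group for several of the genes. Control 76 was the highest control for *Mdm2*, *Mdm4*, *Ccng1*, *Zmat3*, *Trp53inp1* and *Eda2r*, 6 of the 10, and the lowest for *Sesn1*. Control 71 was the highest control for *Trp53*, *Cdkn1a* and *Phlda3* and the lowest for *Mdm2*, *Ccng1*, *Trp53inp1* and *Eda2r*. Among mutants, replicate 79 was the highest for *Mdm2*, *Mdm4*, *Ccng1*, *Zmat3* and *Trp53inp1* and the lowest for *Trp53*, *Sesn1* and *Eda2r*, and replicate 77 was the lowest for *Mdm4*, *Zmat3*, *Phlda3* and *Trp53inp1*. Control 76 also had the highest stromal marker sum (175) and the lowest committed marker sum (298) of the controls, whereas among mutants replicate 75 had the highest stromal sum (620) and replicate 77 the highest myeloid sum (55.2). The coefficient of variation in controls ran from 4.27% for *Mdm2* over 6.97% for *Mdm4* and 7.96% for *Trp53* to 31.5% for *Cdkn1a*, 43.5% for *Zmat3* and 58.7% for *Eda2r*.

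**Figure D3:**
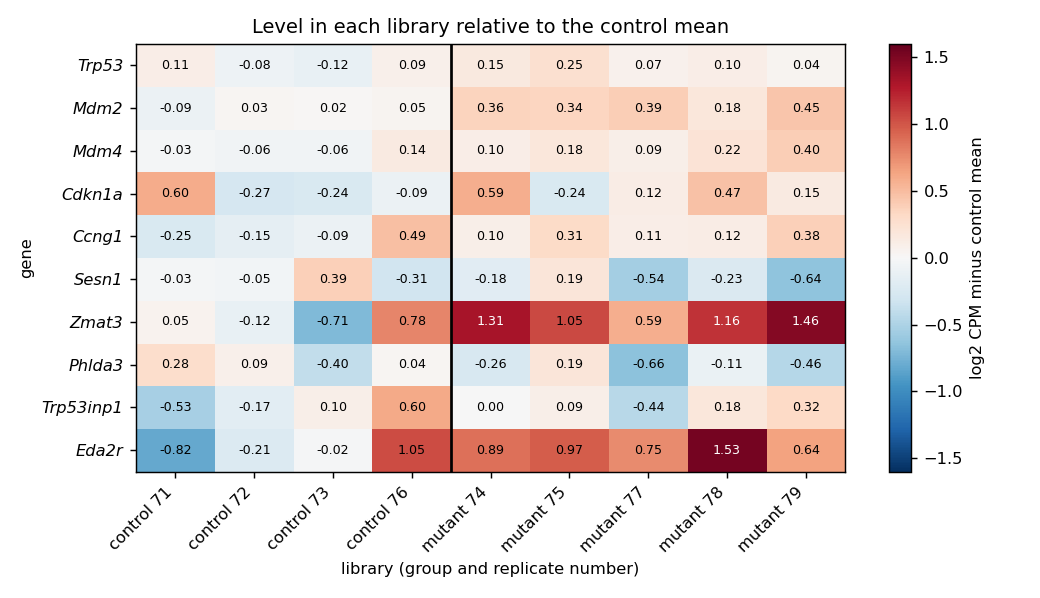
Log2 CPM of each gene (rows) in each library (columns, controls to the left of the black line) minus the mean of the controls, with the value printed in each cell and red for higher and blue for lower. *Mdm2* is positive in all 5 mutants (0.18 to 0.45), *Zmat3* and *Eda2r* are the most positive rows in mutants, and control 76 is positive for both of these (0.78 and 1.05).

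The number of genes called depended on single libraries. No gene of the 10 passed without control 71, control 72, control 73 or mutant 79, where 8.88%, 8.36%, 6.85% and 11.7% of all genes tested passed. Only *Zmat3* passed without mutant 75 or mutant 77, where 11% and 10.5% of all genes passed. Without control 76, *Mdm2*, *Zmat3* and *Eda2r* passed, beside 14.9% of all genes. DESeq2 called the same 2 genes as edgeR while calling 21.2% of all genes. With limma-voom and sample weights 32.5% of all genes passed, and *Eda2r* (adjusted p = 0.0118, higher) and *Sesn1* (adjusted p = 0.0462, lower) passed beside *Mdm2* and *Zmat3*.

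Per length of transcript, the 10 genes covered a wide range of levels. In controls, in CPM per kilobase of transcript (RPKM), *Phlda3* had 129 ± 23.9, *Trp53* 88.3 ± 7.02, *Cdkn1a* 49.7 ± 15.6, *Sesn1* 43.7 ± 9.04 and *Mdm2* 31.9 ± 1.36. *Ccng1* followed with 15.9 ± 4.01, *Mdm4* with 10.99 ± 0.766, *Trp53inp1* with 8.84 ± 2.99, *Eda2r* with 1.12 ± 0.657 and *Zmat3* with 1.04 ± 0.454. The control ranges of the neighbours *Cdkn1a* and *Sesn1*, *Mdm4* and *Trp53inp1*, and *Eda2r* and *Zmat3* overlapped, and those of the other neighbours were apart. In mutants the order was the same except that *Mdm2* (40.5 ± 2.69) stood above *Sesn1* (36.1 ± 8.48) and *Zmat3* (2.16 ± 0.463) above *Eda2r* (1.99 ± 0.531), and in both of these pairs the mutant ranges overlapped. *Zmat3*, the gene with the largest fold change, was therefore among the least abundant transcripts of the 10.

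Other known p53 targets were measured to see whether the rest of the pathway moved. Of 43 such genes, 42 were in the table and 41 were tested. In mutants 5 rose, 5 fell and 31 did not pass, with a median log2 fold change of 0.02 against -0.01 for all genes. The fit was above 0 for 21 and below 0 for 20. Mutants and controls did not overlap in 9 of the 41, compared with 15.2% of all genes tested. The 10 that passed are set against 14.8% of all genes, and they were divided evenly between directions.

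The 5 that rose included *Thbs1*, *Sesn2*, *Tnfrsf10b* and *Gadd45a*. *Thbs1*, the matrix protein thrombospondin 1, measured 5.92, 13.1, 9.69 and 8.78 CPM in control replicates 71, 72, 73 and 76 and 27.5, 26.7, 67.2, 48.9 and 36.1 CPM in mutant replicates 74, 75, 77, 78 and 79. The groups did not overlap, with a log2 fold change of 2.14 (SE 0.30, edgeR adjusted p = 0.00116). *Sesn2*, a sestrin that is also a target of the amino acid stress factor ATF4, measured 7.50, 10.7, 12.6 and 17.3 CPM in controls and 28.6, 26.3, 30.3, 27.7 and 71.7 CPM in mutants, a log2 fold change of 1.62 (SE 0.32, edgeR adjusted p = 0.00689). *Tnfrsf10b*, a death receptor, rose from 6.84 ± 0.593 to 12.7 ± 1.42 CPM (log2 fold change 0.90, edgeR adjusted p = 0.00571). *Gadd45a*, a growth arrest and stress gene that other stress factors also induce, rose from 9.45 ± 1.31 to 18.3 ± 4.98 CPM (0.95, edgeR adjusted p = 0.0116). In each of these 4 genes all 5 mutants were above all controls. The paper reports higher transcripts of ATF4-regulated stress genes in these mutant cells. Whether p53, ATF4 or a changed share of other cells raised these 4 genes was not tested. *Perp*, a desmosomal protein and the remaining gene that rose, was named after its values were seen and had only 9 to 97 reads per library (1.48, edgeR adjusted p = 0.0389).

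The 5 that fell included *Fdxr* and *Ak1*. *Fdxr*, the mitochondrial ferredoxin reductase, measured 24.4, 30.3, 25.5 and 17.7 CPM in controls and 12.1, 8.24, 6.78, 11.3 and 13.97 CPM in mutants, with no overlap (log2 fold change -1.22, SE 0.22, edgeR adjusted p = 0.00463). *Ak1*, a cytosolic adenylate kinase, fell from 45.4 ± 7.56 to 24.8 ± 4.36 CPM (-0.87, edgeR adjusted p = 0.00534), again with all mutants below all controls. The other 3 were named after their values were seen. *Ephx1*, an epoxide hydrolase, changed by -0.76 (edgeR adjusted p = 0.0138) and *Ddb2*, a sensor of ultraviolet damage, by -0.62 (edgeR adjusted p = 0.0341). *Btg2*, an antiproliferative gene, changed by -1.25 (edgeR adjusted p = 0.0301), from 215, 305 and 278 CPM in controls 71, 72 and 73 and 88.1 CPM in control 76 to between 67.6 and 153 CPM in mutants.

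Among the abundant targets that did not pass, *Rps27l*, a ribosomal protein gene, had a log2 fold change of 0.17 (edgeR adjusted p = 0.504). *Bax*, the apoptosis effector, had 169 ± 20.8 CPM in controls and 165 ± 16.7 CPM in mutants (-0.03, edgeR adjusted p = 0.889), and its sign differed between settings. *Thbs1*, *Sesn2*, *Tnfrsf10b*, *Gadd45a*, *Fdxr* and *Ak1* passed in all 17 alternative settings, unlike *Mdm2* and *Zmat3*. This largely follows from naming the former genes for the smallest adjusted p of their list. *Mdm2* and *Zmat3* were named whatever their adjusted p, so that this contrast cannot compare the lists.

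**Figure D4:**
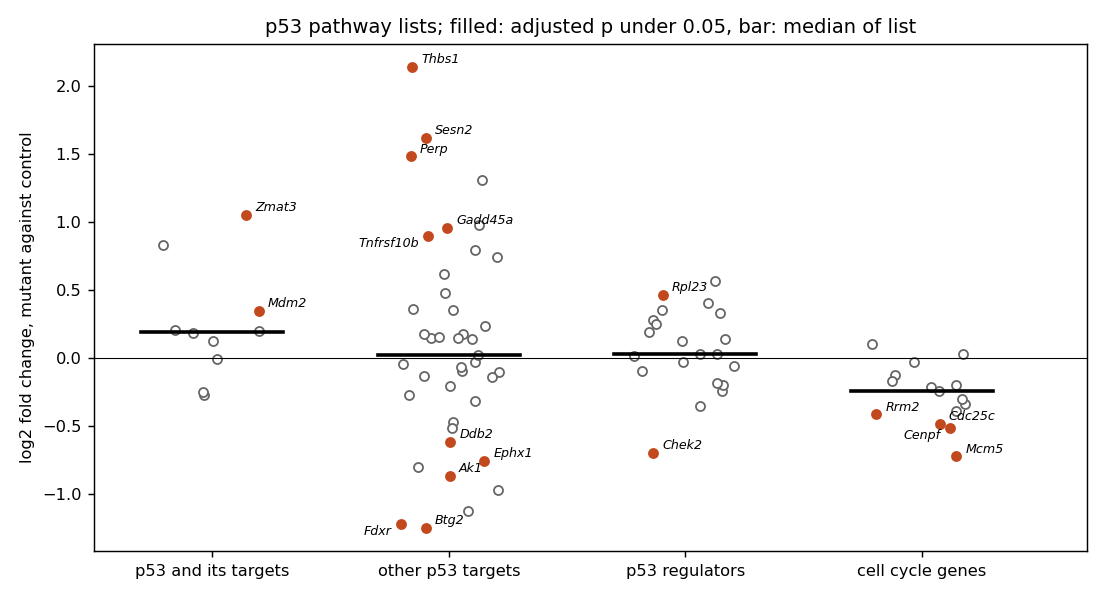
Log2 fold change, mutant against control, of each tested gene of the 10 genes examined (left), 41 other p53 targets, 21 p53 regulators and 15 cell cycle genes, spread sideways at random; filled points passed an edgeR adjusted p under 0.05 and black bars are list medians. Passing genes lie on both sides of 0 among other targets (5 and 5) and only below 0 among cell cycle genes (4).

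The sestrins and other close relatives differed. *Sesn3* rose from 25.0 ± 2.04 to 46.0 ± 9.77 CPM (log2 fold change 0.88, edgeR adjusted p = 0.00588, no overlap), as *Sesn2* did, whereas *Sesn1* did not pass. The log2 ratio of *Sesn1* to *Sesn2* was 4.15, 3.62, 3.82 and 2.67 in controls 71, 72, 73 and 76 and 2.07, 2.56, 1.63, 2.07 and 0.28 in mutants 74, 75, 77, 78 and 79. All mutant ratios were below all control ratios, a difference of -1.84 (exact permutation p = 0.0159, 0.0952 after adjustment over the 6 pairs, which does not pass 0.05). Without mutant 79 the difference was -1.48 and the groups remained apart. *Zmat1*, a relative of *Zmat3*, fell from 20.98 ± 2.06 to 8.96 ± 2.50 CPM (-1.23, edgeR adjusted p = 0.00285) while *Zmat3* rose. *Phlda2*, a relative of *Phlda3* that is expressed from 1 parental allele, was sparse (27 to 153 reads) and had a log2 fold change of 1.75 (edgeR adjusted p = 0.0163). *Cdkn1c*, which encodes the kinase inhibitor p57, had 255 ± 23.0 and 326 ± 108 CPM (0.35, edgeR adjusted p = 0.232). *Ccng2* (-0.10), *Trp53inp2* (-0.18) and *Cdkn1b* (0.36) did not pass. In all, 3 of 10 tested relatives rose and 1 fell, where 7.82% and 7.02% of all genes tested did.

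**Figure D5:**
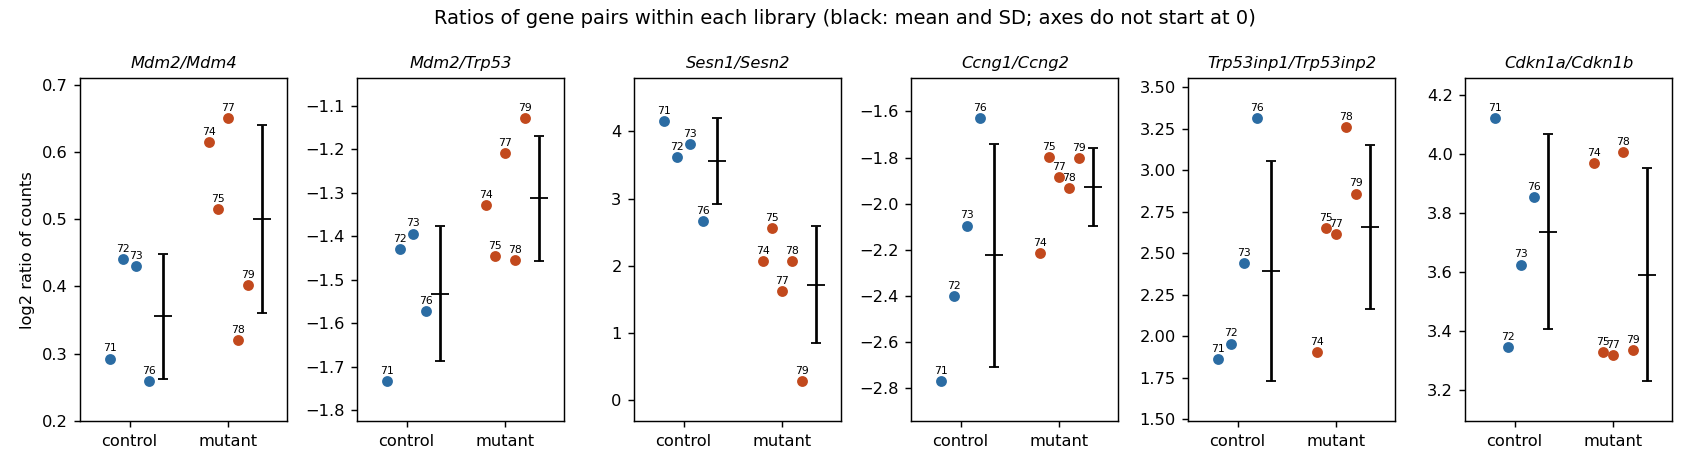
Log2 ratio of the counts of 2 genes in each library (y axes differ and do not start at 0), controls in blue and mutants in orange, with replicate numbers, mean and SD. The 5 mutant ratios of *Sesn1* to *Sesn2* (0.28 to 2.56) lie below the 4 control ratios (2.67 to 4.15), and in the other 5 pairs the groups overlap.

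Genes that act on p53 were examined as the other side of the pathway. Of 23 listed regulators, 21 were tested, with a median log2 fold change of 0.03 against -0.01 for all genes. In mutants 1 rose and 1 fell, where 7.82% and 7.02% of all genes tested did. *Rpl23*, a ribosomal protein that binds MDM2, was the only one that rose (518 ± 80.6 to 714 ± 109 CPM, 0.46, edgeR adjusted p = 0.0447), and *Chek2*, the checkpoint kinase that phosphorylates p53 after DNA breaks, was the only one that fell (45.5 ± 11.1 to 28.1 ± 5.10 CPM, -0.70, edgeR adjusted p = 0.0234). The groups overlapped in both. *Rpl5*, another MDM2-binding ribosomal protein, had a log2 fold change of 0.40 (edgeR adjusted p = 0.0612), and *Set*, an inhibitor of p53 acetylation, of 0.19 (edgeR adjusted p = 0.204) although all 5 mutants (535 to 598 CPM) were above all controls (475 to 515 CPM). Ribosomal protein genes have near-identical pseudogene copies that could share reads, so that these values are less certain. *Cdkn2a*, whose ARF product sequesters MDM2, had 0 to 3 reads per library and was not tested. Without control 71, 72 or 73 or mutant 77 or 78, no regulator passed. In the same order, 1354, 1272, 1046, 1564 and 1336 of 14829 to 15267 genes tested passed.

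Genes that p53 is known to lower through p21 and the DREAM repressor complex made up the last list. The paper reports less proliferation in mutants than in Cre-negative controls, by BrdU labeling of SIX2 cells before E18.5 and by Ki67 at birth. Whether p53 or a lower share of dividing cells had a part in the values of this list was not tested. Of these 15 cell cycle genes none rose, 4 fell and 11 did not pass, where 7.02% of all genes tested were lower and 7.82% higher in mutants. The median log2 fold change was -0.24, against -0.01 for all genes. The fit was below 0 for 13 of the 15. *Mcm5*, a subunit of the replicative helicase, fell from 190 ± 43.2 to 115 ± 21.4 CPM (-0.73, edgeR adjusted p = 0.0155). *Rrm2*, the small subunit of ribonucleotide reductase, fell from 234 ± 9.56 to 175 ± 23.9 CPM (-0.42, edgeR adjusted p = 0.0285), with no overlap. *Cenpf* (-0.52, edgeR adjusted p = 0.0384), a kinetochore protein, and *Cdc25c* (-0.48, edgeR adjusted p = 0.0469), the phosphatase that activates CDK1, also fell. *Ccnb1* and *Cdk1*, which encode the mitotic cyclin B1 and its kinase, were the most abundant that did not pass (-0.03 and 0.10, edgeR adjusted p = 0.932 and 0.711), and the sign of each differed between settings. No gene of this list passed without control 73, where 6.85% of all genes tested passed.

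The transcripts whose pattern over the 9 libraries was most like that of *Cdkn1a* were *Ppp1r35*, *Son*, *Ier5l*, *Trim41* and *Zfp771*. Likeness was the mean absolute difference of the standardized log2 CPM, and it was 0.314, 0.326, 0.359, 0.359 and 0.381 for these 5, against a median of 1.08 over the 9340 genes compared, whose mean level was 10 CPM or more. None of the 5 passed the test between genotypes, which largely follows from choosing genes that resemble *Cdkn1a*, itself not passing.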

How the data were processed

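RNA-seq of sorted SIX2 progenitors was analysed from 1 deposited table. The authors counted reads per gene, and the deposited counts, 1 column per library, were used without change. The submitters' processing notes name STAR, DESeq2 and mm10 without versions or roles. The libraries kept no strand and were amplified from low-input RNA, so reads of genes on opposite strands cannot be told apart. Of the 10 genes only *Mdm4* overlapped another gene, a pseudogene on the opposite strand, over 639 bases. The table also holds FPKM and the authors' comparison (mean signal, fold change, p-values), which were not used, and 0 further columns of single samples.

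The test of mutant against control used edgeR 4.0.16 in R 4.3.3 (filterByExpr, TMM, robust quasi-likelihood test, Benjamini-Hochberg over all genes tested, threshold 0.05), and the fit was tested on simulated data. CPM and RPKM were computed from counts, TMM library sizes and the gene lengths of the table. Standard errors were derived from the F statistic of each gene. Gene pairs were compared as log2 ratios of counts plus 0.5. The alternatives comprised the DESeq2 1.42.0 test, normalization by RLE or upper quartile, 2 filters, limma-voom with sample weights (limma 3.58.1), 1 surrogate variable (sva 3.50.0), a Y-linked covariate, single libraries left out and unadjusted p. A gene with at most 3 counts was taken to be at the floor. Intervals are those of the fit at 95%.

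The 10 genes and all lists were chosen with earlier results of these data known. Named were all 10, and from each other list up to 6 passing genes with the smallest adjusted p and up to 2 most abundant that did not pass, plus the relatives in the gene pairs, the 5 most like *Cdkn1a* and *Uqcrq*. Symbols were matched to older names by RefSeq synonyms, and *Sco2* and *Trp53rka* had no match. Figures used Python 3.11.15 and matplotlib 3.10.9.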

Additional observations from a re-analysis of the deposited data

Results flagged for a closer look

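In 4 of 84 sets of values, each from the libraries of 1 group, 1 library lay far from the others by Dixon's test. Chance alone flags about 1 set in 20, or 4.2 here. *Mdm4* in control 76 was 86.2 CPM, with the other controls at 74.8 to 76.3. *Cdkn1a* in control 71 was 139 CPM, with the other controls at 76.2 to 86.3. *Sesn2* in mutant 79 was 71.7 CPM, with the other mutants at 26.3 to 30.3. *Rrm2* in control 73 was 220 CPM, with the other controls at 238 to 240.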

How the results depend on the processing

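No paired analysis was possible because the groups share no replicate number. Of the 10 genes, 2 passed by the reported fit, 1 with no filter beyond 1 count, 4 with limma-voom (3 higher, 1 lower) and 0 to 3 when single libraries were left out. Of all 14990 genes tested, 4868 passed with limma-voom, 3184 with DESeq2, 3111 with 1 surrogate variable and 2192 after upper-quartile scaling. At an unadjusted p under 0.05, 4709 passed. With no filter beyond 1 count 1975 of 26858 passed, and without single libraries 1046 to 3136 of 14790 to 15306. Other targets gave 17 with limma-voom, 16 unadjusted and 6 to 12 without single libraries. Regulators gave 6 with limma-voom, 4 with DESeq2, 1 after upper-quartile scaling, 4 with 1 surrogate variable, 6 unadjusted and 0 to 5 without single libraries. Cell cycle genes gave 8 with limma-voom and 0 to 5 without single libraries. *Trp53inp1* changed sign with DESeq2 (0.0020), RLE (0.0021) and the Y-linked covariate (0.0044), and ranged from -0.16 to 0.24 without single libraries. *Bax* changed sign with limma-voom (0.026; -0.089 to 0.042 without single libraries), as did *Ccnb1* (0.048; -0.16 to 0.078). *Cdk1* was -0.050 with the surrogate variable, and *Ccng2* ranged from -0.17 to 0.0062 without single libraries. The *Ccng1* to *Ccng2* difference ranged from 0.11 to 0.50, the latter without control 76 (exact permutation p = 0.0357). The cause of these shifts was not tested. Median log2 fold changes of all genes stayed between -0.04 and 0.05 in all settings. Few reads limit the precision of *Eda2r*, *Zmat3* and *Perp*.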

Other observations

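Another 4 listed genes of p53-linked cell death or of the control of MDM2 were picked after their values were seen. *Fas*, the death receptor, measured 2.44 ± 0.565 CPM in controls and 4.8 ± 2.36 CPM in mutants (log2 fold change 0.98, edgeR adjusted p = 0.0788). *Pidd1*, a death domain scaffold that activates caspase 2, measured 14.1 ± 2.34 and 8.06 ± 3.25 CPM (-0.80, edgeR adjusted p = 0.0664). *Bbc3*, which encodes PUMA, measured 35.0 ± 7.33 and 44.8 ± 7.78 CPM (0.35, edgeR adjusted p = 0.177). *Usp7*, the deubiquitinase of MDM2 and p53, measured 63.4 ± 3.53 and 81.0 ± 10.9 CPM (0.35, edgeR adjusted p = 0.0671). None of these passed.

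The pseudogenes *Trp53-ps* and *Mdm4-ps* had 0 to 1 and 0 to 3 reads per library.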
